A study of Mus musculus with 9 samples.

Results

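The collagen genes other than the paired basement membrane genes Col4a1 and Col4a2 were followed through embryoid body differentiation of mouse embryonic stem cells. The members were the protein-coding genes whose symbol in GENCODE release M21 is Col, a number, a and a number, without those 2 genes, which left 42 of the 54232 gene IDs in the table, on 14 chromosomes. Embryoid bodies are aggregates in which pluripotent cells form derivatives of the germ layers. Polyadenylated RNA had been sequenced from 9 libraries, 3 in each of 3 groups named EBD2, EBD5 and EBD6. All 3 groups had a wild-type (WT) genotype, were labelled as embryonic stem cells and differed only in the named differentiation. The labels name no strain, cell line, clone or added agent, leave the number in the group name undefined, and do not tell whether the replicates of a group came from separate cultures. P-values therefore reflect only the spread between the samples at hand, and that spread could be technical. Words such as rise, fall and step follow the order of the group numbers. The labels do not say that this is an order in time.

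Collagens are proteins of the extracellular matrix in which chains from 1 or more genes wind into a long helix. Fibrillar collagens form the cables of tendon, bone, skin and cartilage, fibril-associated collagens sit on the surface of those cables, and network and beaded-filament collagens form sheets and fine filaments at cell borders. Transmembrane collagens are anchored in the cell surface, and the multiplexins are basement membrane collagens that carry heparan or chondroitin sulfate chains. Early embryos make mainly basement membrane collagen, and cartilage, connective tissue and notochord make fibrillar collagens later. Of the members, 11 were fibrillar, 9 fibril-associated and 6 beaded-filament genes. A further 4 were minor collagen IV chains, 4 transmembrane and 3 short-chain network genes, with 2 multiplexins, the anchoring fibril gene Col7a1 and 2 others (Col26a1 and Col28a1).

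EBD2 replicates 1 and 2 and EBD6 replicates 2 and 3 showed no difference past sampling noise when their counts were compared by chi-square (chi-square per gene 0.949 and 1.01). Their counts were added up within a pair and used as 1 sample, so that EBD2 held 2 samples, EBD5 held 3 and EBD6 held 2. EBD5 replicates 1 and 3 were closer to each other (chi-square per gene 1.21) than to replicate 2 (2.77 and 3.40). They differed past sampling noise and were kept apart, so the 3 EBD5 samples may not be equally independent. Libraries held 5454268 to 11704761 counts. The 3 EBD5 libraries stood apart from the rest, with nuclear ribosomal RNA at 0.726 to 0.811% of counts against 0.0165 to 0.0247% in the other 6, so that this property and the EBD5 group cannot be told apart. All 6 pluripotency markers were detected in every group, at a summed level of 1226 to 1394 CPM in the EBD2 samples, 911 to 1021 in the EBD5 samples and 783 to 901 in the EBD6 samples. CPM is the usual unit of a gene's counts relative to its library, here with library sizes scaled by TMM, a trimmed mean of ratios between libraries.

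The promoters of 5 genes are shown because the results turn on them. Col1a2 went from 3 counts in EBD2 to 839 in EBD6, and Col4a5 and Col4a6 lie head to head and were both highest in EBD6. Col6a5 was far higher in EBD2 than in EBD5 or EBD6, and Col23a1 was the only tested member called highest in EBD5. Each sequence is the 250 bases before the transcription start in RefSeq (GRCm38.p6, the same coordinates as mm10), 5′ to 3′ on the gene's own strand. Capitals mark a CCAAT box (CCAAT), a GC box (GGGCGG) or a TATA box (TATAAA), in either direction. Col1a2 lies at chr6:4505368-4505617 on the plus strand, Col4a5 at chrX:141475169-141475418 on the plus strand and Col4a6 at chrX:141474077-141474326 on the minus strand. Col6a5 lies at chr9:105960644-105960893 on the minus strand and Col23a1 at chr11:51289670-51289919 on the plus strand.
Col1a2: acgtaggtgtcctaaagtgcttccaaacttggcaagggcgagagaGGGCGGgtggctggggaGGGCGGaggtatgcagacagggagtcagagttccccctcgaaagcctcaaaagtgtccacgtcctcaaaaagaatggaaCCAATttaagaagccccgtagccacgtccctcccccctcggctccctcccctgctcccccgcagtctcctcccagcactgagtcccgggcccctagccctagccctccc
Col4a5: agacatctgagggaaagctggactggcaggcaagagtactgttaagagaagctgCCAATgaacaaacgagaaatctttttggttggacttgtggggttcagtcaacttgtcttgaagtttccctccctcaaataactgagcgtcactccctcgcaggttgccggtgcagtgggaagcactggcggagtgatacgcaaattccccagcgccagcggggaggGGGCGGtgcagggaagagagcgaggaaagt
Col4a6: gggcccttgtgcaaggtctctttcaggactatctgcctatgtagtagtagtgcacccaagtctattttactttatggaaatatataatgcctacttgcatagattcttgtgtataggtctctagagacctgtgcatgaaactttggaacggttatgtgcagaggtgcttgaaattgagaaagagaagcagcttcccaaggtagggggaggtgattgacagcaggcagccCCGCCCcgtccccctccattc
Col6a5: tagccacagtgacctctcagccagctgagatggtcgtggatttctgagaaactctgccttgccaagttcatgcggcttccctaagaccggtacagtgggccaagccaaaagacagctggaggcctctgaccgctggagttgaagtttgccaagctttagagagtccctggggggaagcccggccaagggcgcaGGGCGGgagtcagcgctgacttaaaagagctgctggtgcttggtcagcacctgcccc
Col23a1: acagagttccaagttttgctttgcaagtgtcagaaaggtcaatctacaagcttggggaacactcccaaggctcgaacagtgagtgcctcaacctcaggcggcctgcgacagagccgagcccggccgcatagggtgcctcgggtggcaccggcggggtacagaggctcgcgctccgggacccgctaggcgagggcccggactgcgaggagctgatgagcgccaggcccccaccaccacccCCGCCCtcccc

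Col1a2 held 2 GC boxes and 1 CCAAT box, Col4a5 held 1 of each, and Col4a6, Col6a5 and Col23a1 each held 1 GC box alone. The Col4a6 and Col4a5 windows are 842 bases apart. The Col4a6 window lies between the 2 genes as annotated in GENCODE M21. The Col4a5 window begins between them and ends inside Col4a5, which starts at 141475385 in GENCODE, before its RefSeq start. All of the Col1a2 window lies inside the Col1a2 gene as annotated in GENCODE, where that gene starts at 4504814. RefSeq windows were found for 33 of the 42 members, 36 windows in all. The other 9 were Col1a1, Col2a1, Col4a3, Col5a2, Col9a3, Col12a1, Col14a1, Col22a1 and Col26a1. A GC box stood in 21 of the 36 windows (58.3%), against 32.7% of all 32851 RefSeq windows of that length. A CCAAT box stood in 11 (30.6%, against 33.8%) and a TATA box in 5 (13.9%, against 12.4%), and 2 matches overlapped another. The windows of the members had a median GC content of 58.4%, against 52.4% over all windows. A match is a description of the letters and not a binding site.

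Collagen RNA was scarce in all 3 groups outside a few genes. The 42 genes together took 0.0594 to 0.0639% of the counts of an EBD2 library, 0.0216 to 0.0228% in EBD5 and 0.0638 to 0.0756% in EBD6. Their summed level was 607 and 587 CPM in the EBD2 samples, 230, 243 and 230 CPM in the EBD5 samples, and 613 and 709 CPM in the EBD6 samples. EBD5 was below both other groups in every sample. Much of the sum is 1 gene, since Col18a1 made up 67.58% of it in EBD2, 55.95% in EBD5 and 45.54% in EBD6. With per-library offsets for GC content and length, the log2 change of Col18a1 in EBD6 against EBD5 was 0.04 and not called. The sums carry no such offsets. Col4a1 and Col4a2, the main basement membrane chains, rose instead at each step, from a summed 120 ± 21.8 CPM (SD, n = 2) to 670 ± 12.2 (n = 3) and 1618 ± 15.1 (n = 2). At 10 CPM or more, 5 of the 42 members were found in EBD2, 3 in EBD5 and 11 in EBD6. Col2a1 and Col18a1 were in all 3 sets.

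The makeup of the collagen RNA shifted from Col18a1 towards fibrillar genes. On a scale per length (RPKM, CPM per kilobase of the longest coding transcript), Col18a1 made up 65.3% of the summed level in EBD2, 55.6% in EBD5 and 46.1% in EBD6. Col18a1 encodes the multiplexin of basement membranes whose end fragment is endostatin. The fibrillar genes together went from 11.9 ± 0.331% (n = 2) to 18.8 ± 0.5% (n = 3) and 36.6 ± 2.11% (n = 2). The share of the transmembrane genes was 3.22 ± 0.885%, 9.57 ± 1.01% and 2.35 ± 0.361% in the same order. Col9a2 was the next highest RPKM after Col18a1 in EBD2, at 10.4, and Col2a1 was next in EBD5, at 3.43, and in EBD6, at 23.0. The next in order, Col23a1 in EBD5 at 3.20 RPKM, did not differ from Col2a1 beyond the spread, whose SDs were 0.27 and 0.313.

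**Figure D1:**
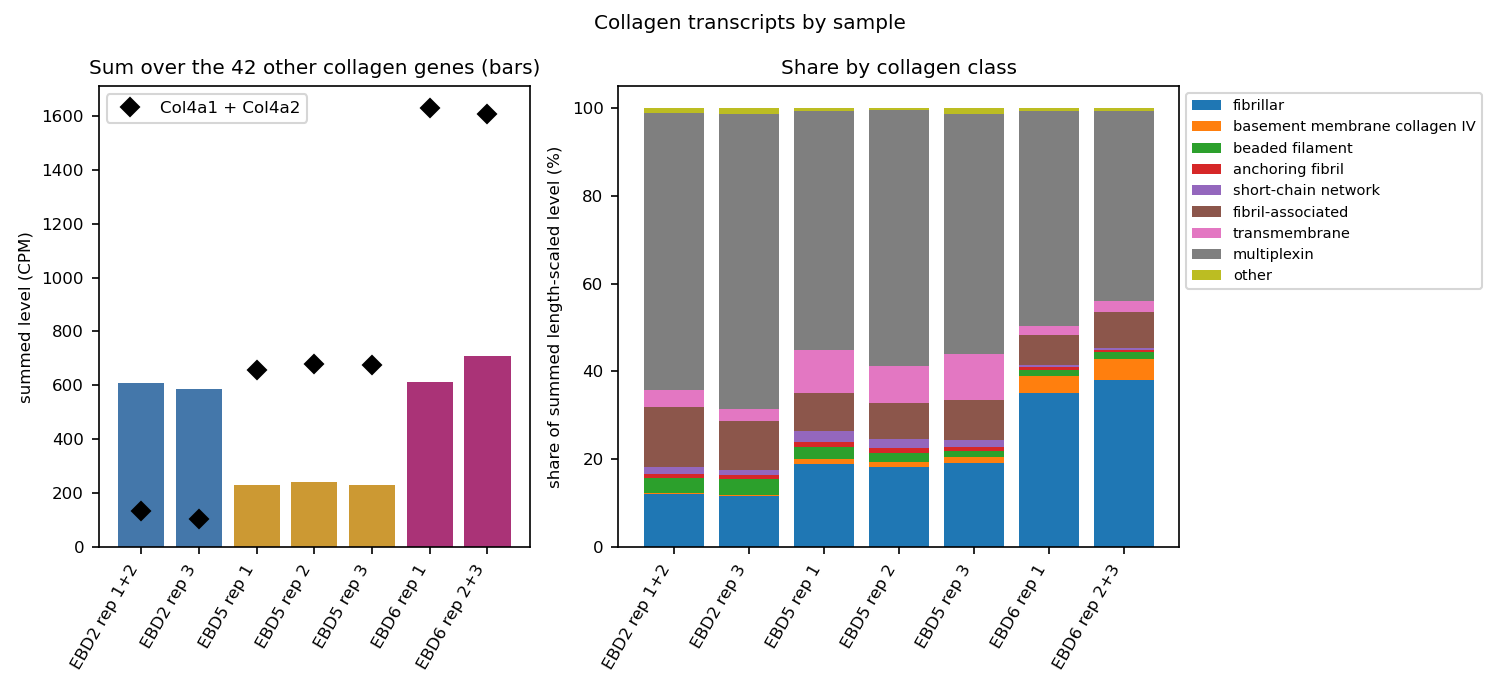
Left, summed level in CPM of the 42 collagen genes (bars) and of Col4a1 plus Col4a2 (diamonds) in each of the 7 samples. Right, share of the summed RPKM by collagen class, in percent; the fibrillar share runs from 11.7% in an EBD2 sample to 38.1% in an EBD6 sample, and the bars of EBD5 are the lowest on the left.

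Of the 42 members, 28 had enough counts to be tested and 14 did not. The test was edgeR's quasi-likelihood F test over 16168 genes, with Benjamini-Hochberg adjustment over all of them and a call at an adjusted p under 0.05. The filter on low counts acted at about 1.71 CPM, and 20 of the 28 tested members were below that level in at least 1 group. A gene that passes only through the group where it is high has to differ, so counts over tested members are given as a description. In EBD5 against EBD2, 8 members were called higher and 15 lower, where 34.9% and 35.1% of all tested genes were called (70% in either direction). In EBD6 against EBD5, 20 were called higher and 1 lower, against 36.9% and 33.3% of all tested genes (70.2% in either direction). In EBD6 against EBD2, 14 were higher and 10 lower, against 33.8% and 32.3% (66.1% in either direction). The median log2 change of the tested members was -1.24, 1.76 and 0.75 in that order, and that of all tested genes was -0.01, 0.04 and 0.01. The samples of the groups did not overlap for 24, 23 and 25 of the 28 members, against 81.2%, 78.3% and 80.6% of all tested genes.

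**Figure D2:**
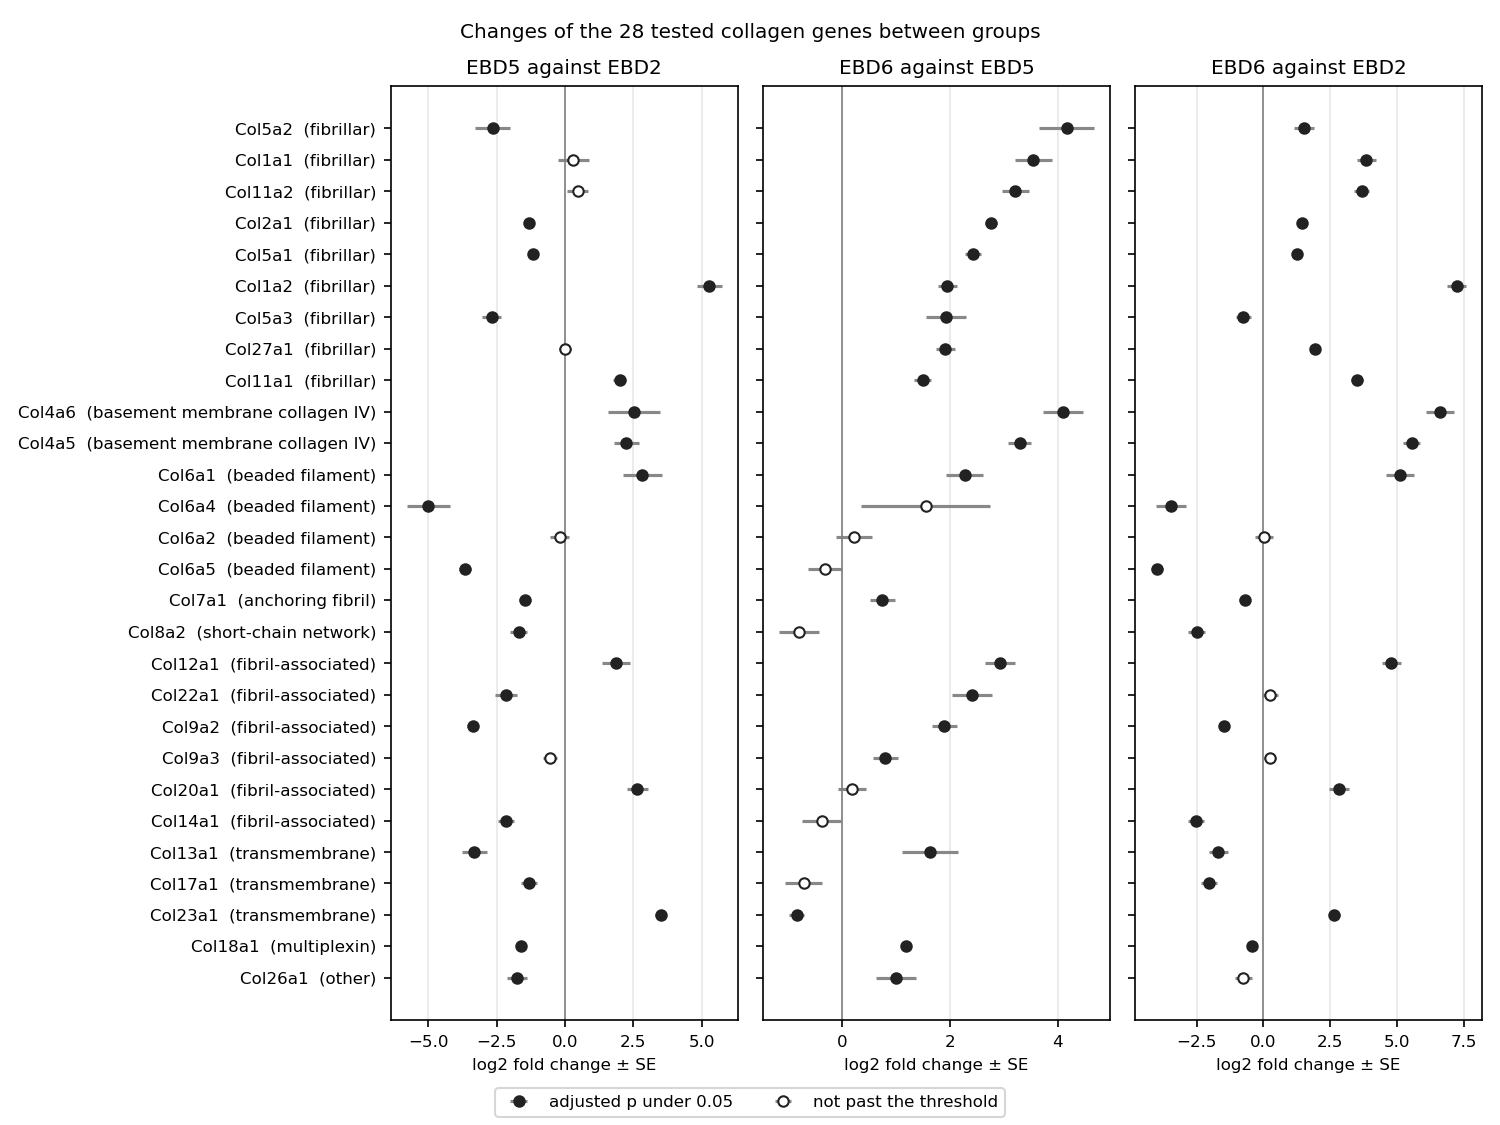
Log2 fold change with its SE for the 28 tested collagen genes, by class, in the 3 comparisons; filled points passed an adjusted p of 0.05 by edgeR's quasi-likelihood test and open points did not. All 9 tested fibrillar genes lie to the right of 0 in EBD6 against EBD5, and Col23a1 is the only filled point to the left there.

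Called against both other groups, 12 members were highest in EBD6 (21.2% of all tested genes were), 10 in EBD2 (19.2%) and 1, Col23a1, in EBD5 (20.2%). The lowest level was in EBD5 for 10 members (19.9% of all tested genes), in EBD2 for 8 (18.4%) and in EBD6 for 0 by edgeR (16.6%), by edgeR at an unadjusted p under 0.05, by DESeq2 and by limma-voom. With per-library offsets for GC content and length, the 12, the 10 and Col23a1 kept these peaks, and Col26a1 joined those highest in EBD2. With the offsets, 18.2% of all tested genes were highest in EBD6, 22.2% in EBD2 and 16.3% in EBD5. Of the 10 lowest in EBD5, 5 kept that call (14.4% of all tested genes were lowest there with the offsets), namely Col2a1, Col5a1, Col5a2, Col9a2 and Col22a1. With the offsets Col8a2 and Col17a1 were lowest in EBD6 (16% of all tested genes were). The tested members had a median GC content of 56.8%, against 49.5% over all tested genes. The 10 members lowest in EBD5 had a median of 60.6%, and the 8 lowest in EBD2 had 54.3%. By comparison, the offsets gave for EBD5 against EBD2 10 higher and 15 lower, for EBD6 against EBD5 14 higher and 3 lower, and for EBD6 against EBD2 14 higher and 11 lower. The shares of all tested genes given above for these comparisons are without the offsets. The part of the ribosomal RNA in these calls was not tested.

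**Figure D3:**
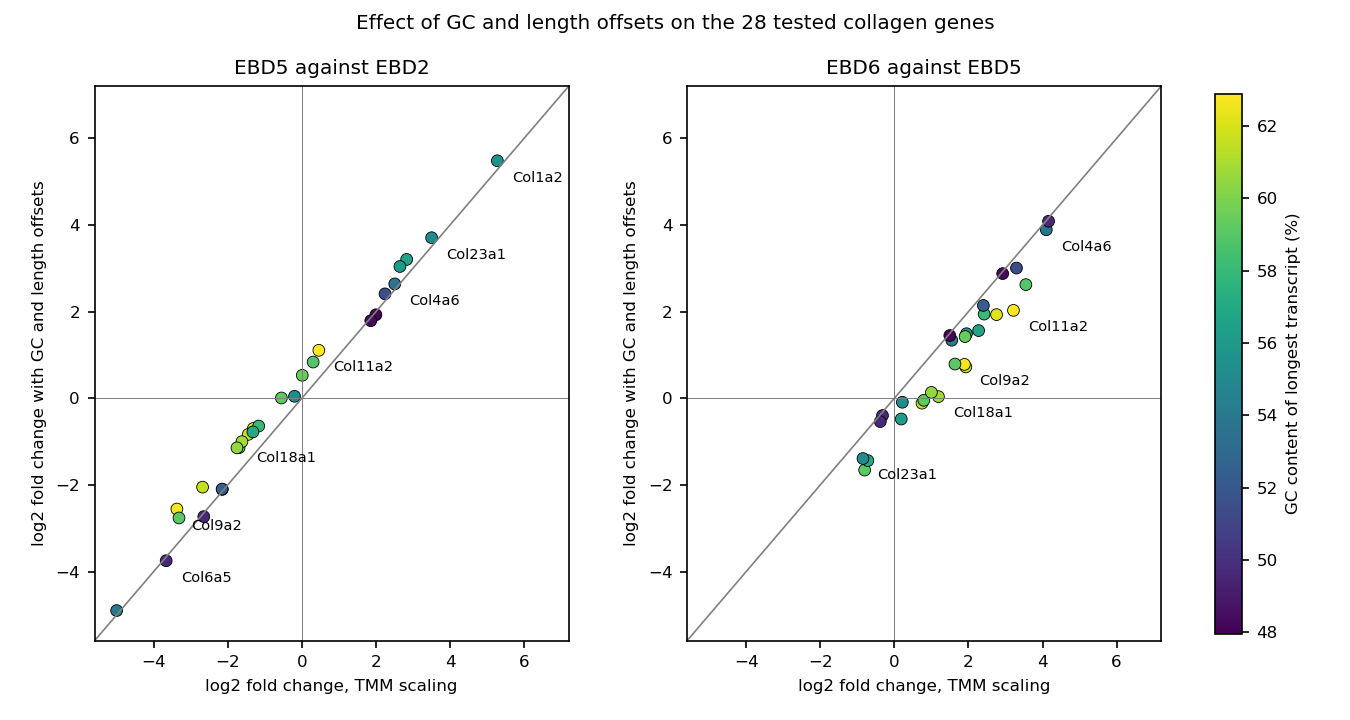
Log2 fold change of each tested collagen gene with TMM scaling (horizontal) and with GC and length offsets (vertical), coloured by the GC content of the longest transcript in percent. Col9a2 and Col11a2, at 62.7% and 62.9% GC, lie off the line of equality, and Col18a1 moves from 1.19 to 0.04 in EBD6 against EBD5.

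All 9 tested fibrillar genes were called higher in EBD6 than in EBD5, where 36.9% of all tested genes were. The 9 were Col1a1, Col1a2, Col2a1, Col5a1, Col5a2, Col5a3, Col11a1, Col11a2 and Col27a1. Of them, Col1a1, Col1a2, Col5a2, Col5a3, Col11a1 and Col11a2 were below the filter level of 1.71 CPM in at least 1 group. The counts of the class are therefore a description. With GC and length offsets 8 of the 9 kept the call, and Col5a3 did not (log2 change 0.72). Against EBD2, 8 of the 9 were higher in EBD6 and Col5a3 was lower (33.8% and 32.3% of all tested genes). By DESeq2 the calls of Col5a2 (1.40) and Col5a3 (-0.85) in that comparison were lost. In EBD5 against EBD2 the class was mixed, with 2 higher and 4 lower (34.9% and 35.1% of all tested genes) and 3 not called. The median log2 change of the class was 0.01, 2.42 and 1.92 in EBD5 against EBD2, EBD6 against EBD5 and EBD6 against EBD2.

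Col1a2 encodes the alpha 2 chain of collagen I, the main fibril of bone, tendon and skin. Its level was 0.25 and 0 CPM in the EBD2 samples, 6.47, 6.69 and 8.12 in the EBD5 samples, and 23.6 and 29.9 in the EBD6 samples. The 3 groups did not overlap and each was far above the one before it. The counts rose from 3 in EBD2, all of them in replicate 1, to 119 in EBD5 and 839 in EBD6. That is a ratio of 41.7 for EBD5 to EBD2 (95% counting interval 13.9 to 205) and of 169 for EBD6 to EBD2 (57.7 to 822). Such intervals cover counting error only, since reads lacked molecular identifiers and 1 molecule can give several. The step from EBD5 to EBD6 was 1.95 ± 0.18 on the log2 scale (SE; adjusted p = 2.7e-06 by edgeR's quasi-likelihood test with Benjamini-Hochberg adjustment).

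Col1a1 encodes the partner chain of collagen I, of which the protein usually takes more than of alpha 2. It stayed at 0.582 and 0.704 CPM in EBD2 and 0.36, 0.668 and 1.32 CPM in EBD5, and reached 7.75 and 10.1 CPM in EBD6. The EBD2 and EBD5 samples overlapped, and both EBD6 samples were above all others. The log2 change was 3.55 ± 0.34 in EBD6 against EBD5 and 3.85 ± 0.37 in EBD6 against EBD2, and 0.30 ± 0.56 in EBD5 against EBD2, which did not pass the test. Per length, Col1a2 exceeded Col1a1 by 6.81 to 20 times in the EBD5 samples and by 3.27 to 3.38 times in the EBD6 samples. The RPKM behind this were 1.33 ± 0.168 and 0.132 ± 0.0829 in EBD5, and 5.003 ± 0.833 and 1.51 ± 0.285 in EBD6. In these bulk libraries fewer cells of a type and less RNA per cell cannot be told apart.

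Col2a1 encodes the collagen of cartilage fibrils and of the notochord sheath. It was the most abundant fibrillar gene per length in each group, at 8.48, 3.43 and 23.0 RPKM. Its level was 45.5 and 41.0 CPM in EBD2, 17.3, 19.2 and 16.1 in EBD5, and 106 and 129 in EBD6. The groups did not overlap, and EBD5 was the lowest. The fall to EBD5 was -1.31 ± 0.12 (log2; -0.70 with GC and length offsets), and the rise to EBD6 was 2.76 ± 0.11 (1.93 with the offsets). EBD6 was 1.45 ± 0.11 above EBD2 (adjusted p = 5.67e-07 by edgeR's quasi-likelihood test with Benjamini-Hochberg adjustment).

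Col11a1 and Col11a2 encode chains of collagen XI, the core of cartilage fibrils, and their changes between EBD2 and EBD5 differed in size. Col11a1 was at 1.58 and 1.23 CPM in EBD2, 5.75, 5.35 and 6.61 in EBD5, and 15.9 and 17.1 in EBD6. Col11a2 was at 1.41 and 1.06 CPM in EBD2, 2.16, 2.01 and 1.13 in EBD5, and 13.9 and 18.5 in EBD6. The Col11a1 groups stood clear of each other at both steps, while those of Col11a2 overlapped between EBD2 and EBD5. Col11a1 rose by 2 ± 0.24 and then by 1.497 ± 0.16 on the log2 scale. Col11a2 rose by 3.22 ± 0.24 in EBD6 against EBD5, and its 0.46 ± 0.39 in EBD5 against EBD2 did not pass the test. With GC and length offsets Col11a2 did pass in EBD5 against EBD2 (1.11), and Col11a1 was at 1.93. Per length, the ratio of Col11a1 to Col11a2 was 0.882 to 0.92 in EBD2 samples, 2.1 to 4.6 in EBD5 samples and 0.733 to 0.899 in EBD6 samples. These ratios carry no GC offsets.

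The collagen V genes, whose product limits the width of collagen I fibrils, all had their lowest level in EBD5. Col5a1 was at 14.6 and 16.4 CPM in EBD2, 7.01, 6.35 and 7.18 in EBD5, and 31.2 and 40.6 in EBD6. Its log2 changes were -1.17 ± 0.17, 2.42 ± 0.15 and, for EBD6 against EBD2, 1.26 ± 0.14. Col5a2 had 21 counts in EBD2, 3 in EBD5 and 109 in EBD6, with 1 count in each EBD5 library, and EBD6 was 20.9 times EBD5 (95% counting interval 6.97 to 103). Col5a3 went the other way between EBD2 and EBD6, with 8.98 and 7.75 CPM in EBD2, 1.80, 0.836 and 1.32 in EBD5, and 2.995 and 6.07 in EBD6. Its EBD6 level was lower than in EBD2 by edgeR (log2 change -0.75 ± 0.29). That call was lost by DESeq2 and without EBD2 replicate 1 or 3 or EBD6 replicate 1 or 2, where the log2 change ran from -0.46 to -0.85.

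Col27a1, a fibrillar gene of cartilage, was at 6.32 and 4.40 CPM in EBD2, 5.21, 5.68 and 6.04 in EBD5, and 18.3 and 23.2 in EBD6. The first 2 groups overlapped, and EBD6 was 1.91 ± 0.18 above EBD5 on the log2 scale. The remaining fibrillar genes were not tested. Col3a1, the collagen of vessel walls and loose connective tissue, had 1 count in EBD2, 6 in EBD5 and 41 in EBD6, and EBD6 was 24.8 times EBD2 (95% counting interval 4.21 to 1004). Col24a1 had 7, 11 and 3 counts, with EBD5 at 6.37 times EBD6 (1.68 to 35.6).

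**Figure D4:**
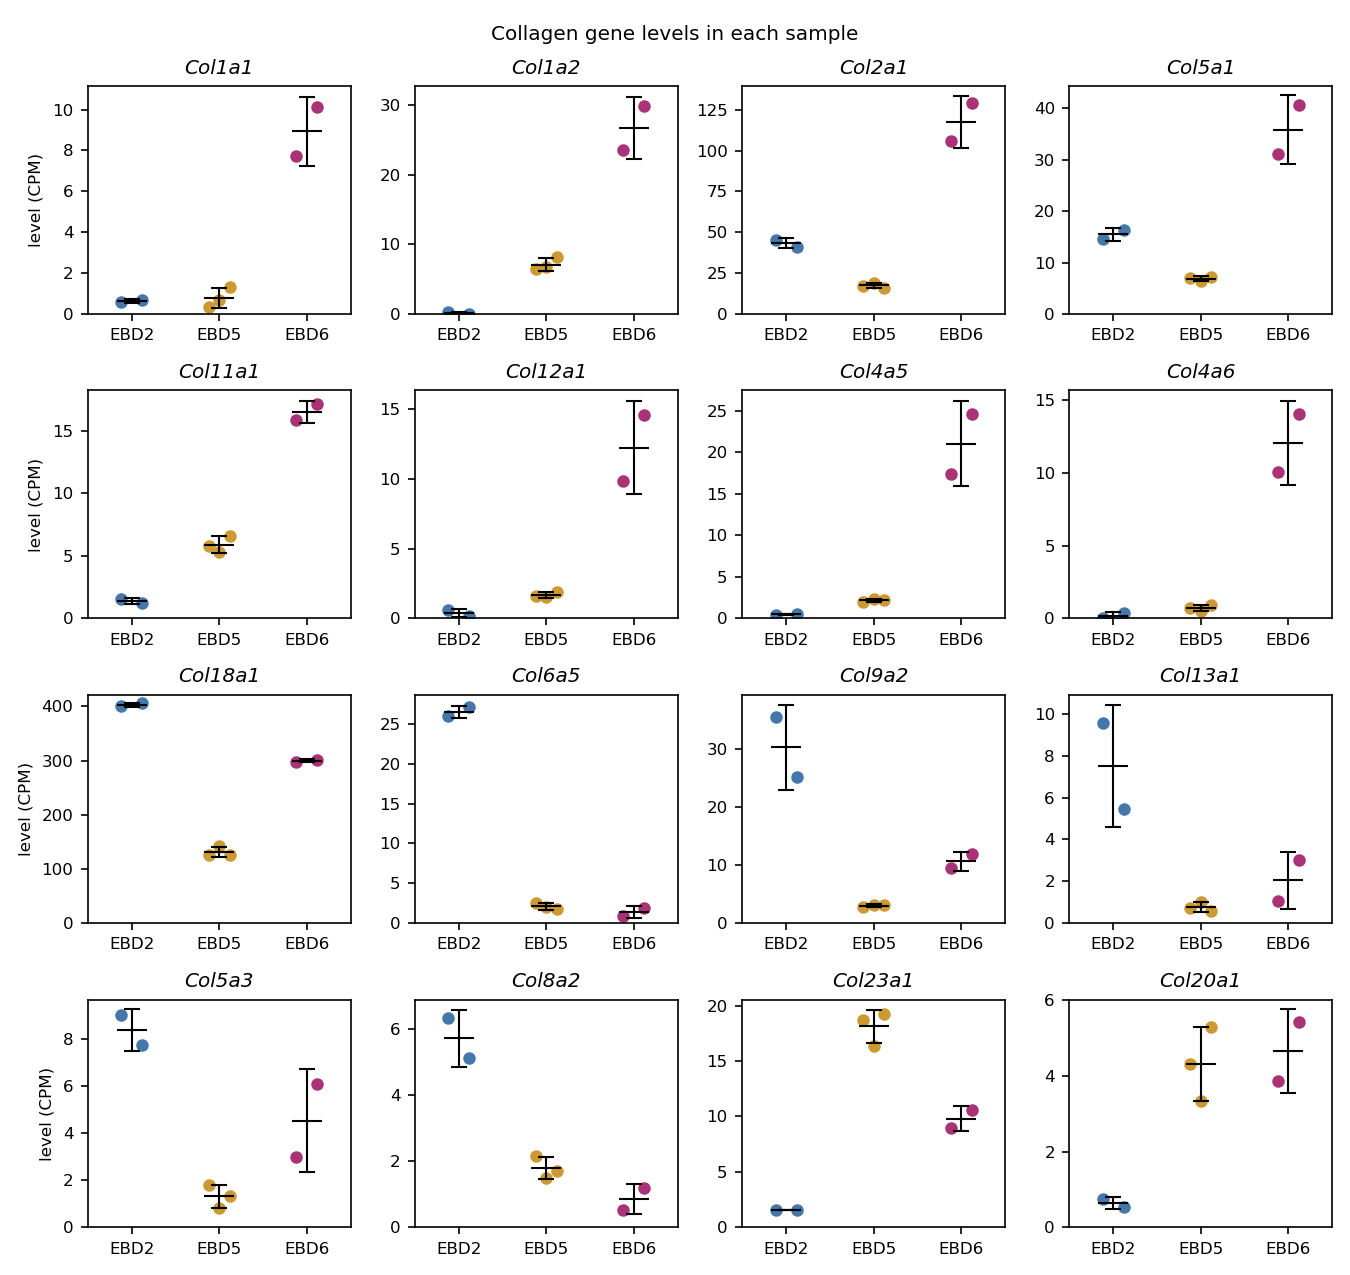
Level in CPM of 16 collagen genes in each sample, with the mean and SD of each group (2 EBD2, 3 EBD5 and 2 EBD6 samples), on axes that start at 0. The upper 8 genes are highest in EBD6, the next 6 are highest in EBD2, and Col23a1 is highest in EBD5, at 16.4 to 19.3 CPM.

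The minor collagen IV genes Col4a5 and Col4a6 rose together. Their proteins enter special basement membranes of kidney, skin and smooth muscle, and COL4A5 is the human gene of X-linked Alport syndrome. The pair lies head to head on the X chromosome, with Col4a6 at chrX:141165403-141474076 on the minus strand and Col4a5 at chrX:141475385-141689234 on the plus strand (mm10, GENCODE M21). The starts are 1308 bases apart. Col4a5 was at 0.416 and 0.528 CPM in EBD2, 1.98, 2.34 and 2.27 in EBD5, and 17.4 and 24.7 in EBD6. Col4a6 was at 0 and 0.352 CPM in EBD2, 0.719, 0.501 and 0.944 in EBD5, and 10.04 and 14.1 in EBD6. In both genes the groups did not overlap, and both EBD6 samples were far above all others.

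Col4a5 rose by 2.25 ± 0.45 and by 3.30 ± 0.21 on the log2 scale, and Col4a6 rose by 4.10 ± 0.37 from EBD5 to EBD6 (adjusted p = 2.54e-06 by edgeR's quasi-likelihood test with Benjamini-Hochberg adjustment). Col4a6 had 2 counts in EBD2, so that EBD6 was 118 times EBD2 (95% counting interval 32.4 to 976). EBD5 was 6.31 times EBD2 (1.4 to 58.0), a call that was lost without EBD2 replicate 1 or 2 or EBD5 replicate 1 or 3, at log2 changes of 1.97 to 2.52. Without EBD2 replicate 3, which held both EBD2 counts, that log2 change was 5.81 and stayed called. Per length, Col4a5 was 1.77 to 1.78 times Col4a6 in the EBD6 samples. Col4a3 and Col4a4, the other head-to-head pair, lie on chromosome 1 with starts 71 bases apart and were not tested. Col4a3 had 2, 2 and 7 counts and Col4a4 had 6, 11 and 20 counts in EBD2, EBD5 and EBD6.

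Of the beaded-filament genes of collagen VI, Col6a1 rose, Col6a4 and Col6a5 fell, and Col6a2 passed no test. Collagen VI is a filament of connective tissue built of an alpha 1, an alpha 2 and a further chain, which can be alpha 3 or, in the mouse, alpha 4, alpha 5 or alpha 6. Col6a5 was at 26.0 and 27.1 CPM in EBD2, 2.52, 2.01 and 1.70 in EBD5, and 0.881 and 1.91 in EBD6. EBD2 was far above both other groups, which overlapped each other. The log2 change was -3.67 ± 0.22 in EBD5 against EBD2 and -3.99 ± 0.22 in EBD6 against EBD2 (adjusted p = 6.93e-08 by edgeR's quasi-likelihood test with Benjamini-Hochberg adjustment). Its neighbours in the same orientation on chromosome 9 had fewer counts. Col6a4 had 1 count in EBD5, with EBD2 at 40.0 times that level (95% counting interval 6.79 to 1615), and its log2 change in EBD6 against EBD2 was -3.45 ± 0.56. Col6a6, which was not tested, had 27 counts in EBD2, none in EBD5 and 5 in EBD6, so that EBD5 was at least 8.56-fold lower than EBD2, taking 3 counts over the group as the floor.

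Col6a1 rose from 0.083 and 0.176 CPM in EBD2 to 1.26, 0.836 and 0.567 in EBD5 and 3.52 and 4.84 in EBD6. With 2 counts in EBD2, EBD6 was 40.6 times EBD2 (95% counting interval 11.0 to 338). Its neighbour Col6a2 was at 2.33 and 2.47 CPM in EBD2, 2.697, 2.34 and 1.13 in EBD5, and 2.11 and 2.55 in EBD6. The groups of Col6a2 overlapped throughout and no comparison passed the test. Per length, Col6a2 was 12.3 to 24.7 times Col6a1 in the EBD2 samples, 1.76 to 2.47 times in EBD5 and 0.464 to 0.529 times in EBD6. Col6a3, the usual partner of alpha 1 and alpha 2 in connective tissue, had 5 counts in EBD2, all of them in replicates 1 and 2, 0 in EBD5 and 7 in EBD6.

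The fibril-associated genes had no common direction. Col9a2, a chain of cartilage collagen IX, was at 35.5 and 25.2 CPM in EBD2, 2.697, 3.18 and 3.02 in EBD5, and 9.51 and 11.8 in EBD6. The groups did not overlap, with EBD5 lowest. Its log2 changes were -3.38 ± 0.21, 1.89 ± 0.23 (0.78 with GC and length offsets) and, for EBD6 against EBD2, -1.49 ± 0.17. Its partner Col9a3 was at 4.33 and 5.28 CPM, then 3.06, 3.51 and 3.02, then 4.58 and 6.11. It was called higher in EBD6 than in EBD5 (0.80 ± 0.23) but not by DESeq2 (0.74) or with the offsets, where the change was -0.05. Per length, Col9a2 was 4.97 to 8.55 times Col9a3 in EBD2, 0.919 to 1.04 times in EBD5 and 2.02 to 2.16 times in EBD6. Of the exons of Col9a3, 6.07% lie on exons of Tcfl5 on the opposite strand, and the strand setting of the counting is not given in the sources used here.

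Col12a1, a collagen of tendon and ligament sheaths, was at 0.582 and 0.176 CPM in EBD2, 1.62, 1.504 and 1.89 in EBD5, and 9.87 and 14.6 in EBD6. Each group was above the one before it, with log2 changes of 1.86 ± 0.52 and 2.92 ± 0.27. Col20a1 rose only at the first step, from 0.749 and 0.528 CPM to 4.32, 3.34 and 5.29, and was at 3.88 and 5.43 in EBD6. Its log2 change was 2.65 ± 0.38 in EBD5 against EBD2 and 0.19 ± 0.26, not past the test, in EBD6 against EBD5. Col14a1, found with collagen I in skin and tendon, moved opposite to Col12a1. It went from 5.66 and 6.69 CPM to 1.62, 1.504 and 0.944 and then 0.881 and 1.10, a log2 change of -2.53 ± 0.30 between EBD6 and EBD2. Col22a1, a collagen of the junction of muscle and tendon, was at 4.66 and 3.70 CPM, fell to 1.26, 1.003 and 0.567 in EBD5 and was at 3.35 and 6.02 in EBD6.

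Among the transmembrane genes, Col23a1 was the member with its peak in EBD5. Its level was 1.58 and 1.59 CPM in EBD2, 18.7, 16.4 and 19.3 in EBD5, and 8.98 and 10.6 in EBD6. The groups did not overlap. The log2 change was 3.50 ± 0.20 in EBD5 against EBD2 and -0.85 ± 0.14 in EBD6 against EBD5 (adjusted p = 0.000266 by edgeR's quasi-likelihood test with Benjamini-Hochberg adjustment), and -1.39 in the latter with GC and length offsets. Col25a1, a transmembrane collagen of motor nerve targets, was not tested. It was at 0.083 and 0 CPM in EBD2, 1.26, 1.17 and 1.70 in EBD5 and 0.881 and 1.40 in EBD6, where the last 2 groups overlapped. It had 1 count in EBD2 and 23 in EBD5, and EBD5 was 24.2 times EBD2 (95% counting interval 3.93 to 996).

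The other transmembrane genes were highest in EBD2. Col13a1, a collagen of the neuromuscular junction, was at 9.57 and 5.46 CPM in EBD2, 0.719, 1.003 and 0.567 in EBD5, and 1.06 and 3.01 in EBD6. EBD5 was -3.32 ± 0.46 below EBD2 in log2. Its rise of 1.64 ± 0.52 from EBD5 to EBD6 was not called without EBD5 replicate 3 (1.48) or with GC and length offsets (0.79). Col17a1, the collagen of hemidesmosomes that tie epithelia to the basement membrane, was at 5.82 and 4.40 CPM, then 1.62, 1.84 and 2.83, then 1.23 and 1.27. It was lower than in EBD2 by -1.32 ± 0.29 in EBD5 and by -2.04 ± 0.31 in EBD6.

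Col18a1 was the most abundant member in every group, at 72.1, 23.5 and 53.5 RPKM. Its level was 401 and 406 CPM in EBD2, 125, 142 and 126 in EBD5, and 298 and 302 in EBD6. The groups did not overlap and EBD5 was the lowest. The log2 change was -1.62 ± 0.07 in EBD5 against EBD2 (-1.002 with GC and length offsets) and -0.43 ± 0.07 in EBD6 against EBD2 (-0.96 with the offsets). The rise of 1.19 ± 0.07 from EBD5 to EBD6 ended with the offsets, at 0.04. Its adjusted p, Benjamini-Hochberg over all genes, was 1.15e-07 by edgeR's quasi-likelihood test, 0.787 with the offsets, and between 1.23e-72 (no filter) and that value over all alternatives. RefSeq lists 2 starts for Col18a1, 52.8 kb apart, and the deposited counts per gene do not separate them. Its relative Col15a1, of muscle and vessel basement membranes, was not tested and had 1, 3 and 17 counts.

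Col7a1, which forms the fibrils that anchor the skin to its basement membrane, was at 11.3 and 7.92 CPM in EBD2, 3.78, 4.01 and 3.02 in EBD5, and 6.52 and 5.85 in EBD6. EBD5 was -1.45 ± 0.22 below EBD2 in log2. Its rise of 0.75 ± 0.23 from EBD5 to EBD6 was -0.11 with GC and length offsets and was not called without EBD6 replicate 3 (0.60) or by DESeq2 (0.73). Its fall of -0.70 ± 0.21 from EBD2 to EBD6 was not called without EBD2 replicate 1 (-0.46) or by DESeq2 (-0.68). Col8a2, a short-chain collagen of the corneal endothelium's membrane, was at 6.32 and 5.11 CPM, then 2.16, 1.504 and 1.70, then 0.528 and 1.19. It was -2.50 ± 0.33 lower in EBD6 than in EBD2. Col26a1 fell by 1.75 ± 0.37 in EBD5 against EBD2, and its 0.9996 ± 0.38 from EBD5 to EBD6 was lost without any of 4 libraries (EBD2 replicate 3, EBD5 replicate 1 or 2, EBD6 replicate 3; 0.74 to 0.99), by DESeq2 (0.93) and with GC and length offsets (0.14).

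The remaining untested members had few counts. Col16a1 had 17, 10 and 92 counts, Col8a1 had 4, 12 and 25, Col9a1 had 8, 9 and 21, and Col10a1, the collagen of hypertrophic cartilage, had 6, 17 and 16. Col19a1 had 0, 0 and 2 counts and Col28a1 had 1, 0 and 1. No untested member was above 2.55 CPM in any group.

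Markers of cartilage, of bone and of fibroblasts each summed to no more than 35.9 CPM in any sample. The 6 cartilage markers summed to 16.2 to 16.7 CPM in EBD2, 8.31 to 10.1 in EBD5 and 24.5 to 25.2 in EBD6, with Snorc at 0 in EBD5 and EBD6. Within that list Sox9, a regulator of cartilage genes, went from 0.34 and 0.53 CPM to 16.7, while Acan, the main cartilage proteoglycan, was at 10.2, 6.17 and 3.53 CPM. The 7 fibroblast and mesenchyme markers summed to 35.9 CPM in both EBD2 samples, 21.4 to 25.5 in EBD5 and 21.1 to 21.5 in EBD6, with Lum at 0 in EBD2 and EBD5. The 4 bone markers stayed at 0.669 to 1.58 CPM, with Ibsp at 0 in all 3 groups. Other marker lists are given in ranges of summed CPM over EBD2, EBD5 and EBD6 samples. The 7 mesoderm markers were at 5.28 to 7.57, 82.0 to 83.2 and 208 to 218 CPM, of which Pdgfra alone was 67.3 CPM in EBD5 and 105 in EBD6, with Mesp1 and Hand2 at 0 in EBD5. The 5 notochord markers were at 2.82 to 3.91, 35.1 to 40.6 and 77.5 to 85.0 CPM, of which Foxa2, also an endoderm gene, was 34.5 and 43.0 CPM in EBD5 and EBD6, while Noto was at 0 in EBD5 and at 0.17 CPM in EBD6. The 7 trophoblast markers were at 4.05 to 6.24, 10.9 to 12.4 and 67.7 to 71.2 CPM, and the 6 surface ectoderm markers at 26.9 to 31.3, 18.7 to 19.8 and 63.6 to 77.0. Of the trophoblast list, Cdx2, Prl3d1 and Elf5 were at 0 in EBD2 and Prl3d1 in EBD5. Of the surface ectoderm list, Trp63, Krt5 and Krt15 were at 0 in EBD2, and Krt5 and Krt14 in EBD5. Neuroectoderm (6 markers, 152 to 159, 75.9 to 83.1 and 187 to 191 CPM), endothelium (6 markers, 166, 77.7 to 81.4 and 141 to 152) and neural crest (4 markers, 34.2 to 39.6, 12.7 to 13.98 and 24.8 to 29.9) had their lowest sums in EBD5. The endothelium sum did not follow most of its genes. Of the 4 tested, 3 were higher and 1 lower in EBD5 against EBD2. In EBD6 against EBD2, 2 of them were higher, 1 lower and 1 not called. The 5 cardiac muscle markers summed to 152 to 169 CPM in EBD2, 32.5 to 38.7 in EBD5 and 12.6 to 12.9 in EBD6. Of the 4 cardiac genes tested, 3 were lower and 1 not called in EBD5 against EBD2. In EBD6 against EBD5, 1 was higher, 1 lower and 2 not called. In EBD6 against EBD2, 1 was higher and 3 lower. The 7 visceral endoderm markers summed to 7.99 to 8.10, 1481 to 1506 and 821 to 865 CPM, of which Cubn alone was 1125 CPM in EBD5 and 406 in EBD6, and of the 7 tested genes of this list 3 were higher, 3 lower and 1 not called in EBD6 against EBD5. The 8 parietal endoderm markers were at 715 to 740, 1906 to 2001 and 1955 to 2047 CPM. The part of any of these cell types in the collagen levels was not tested.

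The genes that fold, process, bind and break down collagen were described from 5 lists of 83 genes, of which 61 were tested. In EBD5 against EBD2, 26 were higher and 20 lower (32 and 16 with GC and length offsets), in EBD6 against EBD5 34 and 12 (22 and 15 with the offsets), and in EBD6 against EBD2 34 and 12 (31 and 14). Without the offsets, 34.9% of all tested genes were higher and 35.1% lower in the first comparison. The shares were 36.9% and 33.3% in the next and 33.8% and 32.3% in the last. The median log2 change of the pathway genes was 0.18, 0.42 and 0.37, against -0.01, 0.04 and 0.01 over all tested genes.

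Of 23 tested genes of folding, modification and export, EBD5 against EBD2 gave 12 higher and 3 lower (34.9% and 35.1% of all tested genes). With GC and length offsets that comparison gave 18 and 2. EBD6 against EBD2 gave 16 higher and 0 lower by edgeR (33.8% and 32.3% of all tested genes were called). There DESeq2 and limma-voom also counted 0 lower, and edgeR at an unadjusted p under 0.05 counted 1. With the offsets, 15 were higher and 2 lower in EBD6 against EBD2. P3h2, a prolyl 3-hydroxylase of basement membrane collagen, went from 1.11 CPM in EBD2 to 18.4 in EBD5 and 24.0 in EBD6, a log2 change of 3.95 ± 0.21 at the first step. Serpinh1, the collagen chaperone HSP47, rose from 130 to 310 CPM (1.25 ± 0.07) and was at 324 CPM in EBD6. P4ha1, a subunit of the prolyl 4-hydroxylase, rose from 73.1 to 172 CPM (1.24 ± 0.08), and the isomerase Fkbp14 rose by 1.55 ± 0.15. In EBD6 against EBD5 the largest rises of the list were in Fkbp10 (0.98 ± 0.10), which folds collagen I, and P4ha2 (0.95 ± 0.09), and 12 were higher and 5 lower in all (36.9% and 33.3% of all tested genes; 8 and 8 with GC and length offsets).

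Of the 12 tested processing and crosslinking genes, 6 were higher and 4 lower in EBD6 than in EBD2 (33.8% and 32.3% of all tested genes), 5 and 5 in EBD5 against EBD2 (34.9% and 35.1%), and 7 and 1 in EBD6 against EBD5 (36.9% and 33.3%). Bmp1, the protease that trims the end of fibrillar procollagens, rose from 3.08 to 16.5 and 62.0 CPM (log2 changes 2.43 ± 0.19 and 1.93 ± 0.12). Its relative Tll1 fell from 15.7 to 2.74 and 1.17 CPM (-2.52 ± 0.29 in EBD5 and -3.92 ± 0.34 in EBD6 against EBD2). Loxl2, an enzyme that crosslinks collagen IV, rose from 7.47 to 65.2 and 103 CPM (3.09 ± 0.10 in EBD5 and 3.755 ± 0.10 in EBD6 against EBD2). Lox, the lysyl oxidase of fibrillar collagen, was not tested, at no more than 0.21 CPM on average in any group (singled out after its values were seen).

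Of 7 tested collagen receptors, 5 were higher and 1 lower in EBD6 than in EBD2 (33.8% and 32.3% of all tested genes), 2 and 4 in EBD5 against EBD2 (34.9% and 35.1%), and 5 and 0 in EBD6 against EBD5 by edgeR (36.9% and 33.3%), with 0 lower also by DESeq2, by limma-voom and at an unadjusted p under 0.05. Adgrg1, a receptor of collagen III, went from 6.19 to 3.14 and 30.5 CPM, with a log2 change of 3.30 ± 0.17 at the second step. Ddr2, the discoidin receptor of fibrillar collagen, had 90, 3 and 25 counts, and EBD2 was 28.5 times EBD5 (95% counting interval 9.46 to 141). Ddr1 rose from 38.5 to 105 CPM between EBD5 and EBD6 (1.47 ± 0.10). Of the 6 tested genes of collagen breakdown, 3 were higher and 1, Mmp2, lower in EBD6 than in EBD2 (33.8% and 32.3% of all tested genes), 2 and 2 in EBD5 against EBD2 (34.9% and 35.1%), and 4 and 1 in EBD6 against EBD5 (36.9% and 33.3%). The metalloproteinase inhibitor Timp3 rose from 18.2 to 122 CPM in EBD5 (2.77 ± 0.08), while Mmp2, a gelatinase, was at 70.9, 52.5 and 28.4 CPM. It fell by 1.3 ± 0.11 on the log2 scale in EBD6 against EBD2, and its -0.43 ± 0.10 in EBD5 against EBD2 was -0.08 and not called with GC and length offsets.

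Of 13 tested collagen-binding matrix genes, 5 rose and 6 fell from EBD2 to EBD5 (34.9% and 35.1% of all tested genes), 6 and 5 in EBD6 against EBD5 (36.9% and 33.3%; 2 and 5 with GC and length offsets), and 4 and 6 in EBD6 against EBD2 (33.8% and 32.3%). Sparc, a collagen-binding glycoprotein also in the parietal endoderm list, rose from 190 to 746 CPM in EBD5 (1.98 ± 0.10). Postn, periostin of connective tissue, had 0, 16 and 163 counts, so that EBD6 was at least 32.9-fold higher than EBD2. Comp, of cartilage and tendon, and Aebp1, which binds collagen I, each fell by 2.42 on the log2 scale in EBD5 against EBD2.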

How the data were processed

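The submitters' processing notes name the build mm10 and the tools cutadapt 1.18, STAR 2.7.10a and RSEM 1.3.30, beside DESeq2 1.38.3 and edgeR 3.40.2, with no role for any. The authors deposited expected counts, which are estimates of reads per gene that need not be whole (90.9 to 94.6% of a library's values were) and carry no scaling for depth or length. A second deposited table of EBD6 alone held identical values. No source used here gives the annotation release or strand setting. A row without a gene (at most 0.0157% of a library) was dropped. Symbols and positions are those of GENCODE M21, mm10.

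Counts were rounded. Library pairs were compared by chi-square over genes that had 20 counts or more in a pair, and pairs within sampling noise were added together. After filterByExpr and TMM, edgeR 4.0.16 in R 4.3.3 fitted all 7 samples by group, without covariates (4 residual degrees of freedom, common biological coefficient of variation 6.7%). Values are mean ± SD, and changes are log2 ± SE. Alternatives were DESeq2 1.42.0 and its size factors, limma-voom 3.58.1, other filters, sample sets and offsets, and each library left out. The fits were tested on simulated data. Exons of 11 members overlap another gene, by up to 6.07% of their length. Any member or marker could be named, and of each pathway list up to 4 genes per direction and comparison with the largest called change. The members, gene lists, tests and alternatives were chosen with earlier results of these data known.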

Additional observations from a re-analysis of the deposited data

How the results depend on the processing

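Of the log2 changes of single members over the alternatives, 1547 kept their direction and side of the threshold, 33 fell short of it, 17 passed it newly and 20 changed sign. Low counts limit most members, since 20 of the 28 tested were below 1.71 CPM in some group. A filter of 5 CPM in 3 of the 7 samples left 10 members to test. EBD2 and EBD6 held 2 samples each, so a gene at 5 CPM or more only in EBD2 or only in EBD6 was dropped. Of these 10 members, 3 were higher and 6 lower in EBD5 against EBD2. In EBD6 against EBD5, 9 were higher and 1 lower, and in EBD6 against EBD2, 6 were higher and 4 lower. Fitting only the groups compared gave 5 higher in EBD5 against EBD2. With EBD5 replicates 1 and 3 as 1 sample, 9 were higher and 16 lower in that comparison, of 32 tested members. Members lower in EBD6 than in EBD5 were 2 with no filter, 2 with 9 libraries and 3 with GC and length offsets. Against a fold of 1.5, pathway genes were 16 higher and 12 lower in EBD5 against EBD2, and 15 and 5 in EBD6 against EBD5. In the latter 22 were higher by DESeq2 and 22 with GC and length offsets. The cause of these differences was not tested.

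Leaving out 1 library gave 7 to 8 members higher and 15 to 16 lower in EBD5 against EBD2, 18 to 21 and 1 to 2 in EBD6 against EBD5, and 14 to 15 and 8 to 11 in EBD6 against EBD2. For pathway genes the ranges were 25 to 27 and 17 to 20, 28 to 33 and 11 to 13, and 33 to 34 and 11 to 13.

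The labels give the groups the same replicate numbers. Deviations of same-numbered libraries from their group means correlated by -0.159 to 0.0852, against -0.173 to 0.193 for libraries with different numbers. By this measure same-numbered libraries were no more alike than the others. With so few libraries per group, it cannot tell whether same-numbered libraries shared a culture or batch. A fit of 9 libraries with a replicate block gave 8 members higher and 15 lower, 20 and 1, and 14 and 11 in the 3 comparisons, and 26 and 20, 33 and 15, and 34 and 14 pathway genes.

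Changes of sign fell on 6 members, none of them past the threshold in the setting that changed the sign. With GC and length offsets Col9a3 was at 0.00605, -0.047 and -0.041 in EBD5 against EBD2, EBD6 against EBD5 and EBD6 against EBD2, and Col6a2 was at 0.045, -0.092 and -0.047. In EBD6 against EBD5, Col7a1 was at -0.113 and Col20a1 at -0.479 with the offsets. Col6a2 in EBD6 against EBD2 was at -0.00017 with DESeq2 size factors, -0.032 by DESeq2 and -0.0045 with only the groups compared. Without 1 library Col6a2 ran from -0.423 to 0.083, from -0.063 to 0.437 and from -0.154 to 0.153 in the same 3 comparisons. In EBD5 against EBD2, Col1a1 ran from -0.253 to 0.645 and Col27a1 from -0.168 to 0.265. With the replicate block Col27a1 was at -7.3e-06.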
